A study of Mus musculus with 2 samples.

Results

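Integrins and related adhesion molecules were examined in bone marrow stem and progenitor cells of mice with and without TIF1γ (Trim33). The group was a list of 33 named genes. Of these, 32 are among the 18193 genes that the array annotation names by a probe set of their own. The list was set by gene name and not by a cut on measured values, but with earlier results of these data known. It held 22 integrin subunits, the selectin ligand Selplg, the hyaluronan receptor Cd44, 6 immunoglobulin superfamily adhesion molecules and 3 cytoplasmic partners of integrins. The annotation assigned 76 probe sets to 32 of the 33 genes, and Itgad alone had none. The study compared the effect of TIF1γ deletion on haematopoietic stem cells with 1 Affymetrix array of wild type mice (labelled wtwt) and 1 of mice conditionally inactivated for TIF1γ (labelled TIF1γ Δ/Δ and called the deleted array below). Both RNA samples came from KLS cells, a sorted fraction that carries c-kit and Sca and lacks lineage markers. The Cre line or other means of inactivation, the age of the mice and the number of mice pooled per sample are not stated in the sources used here. With 1 array per genotype there was no replicate, so every difference below compares 2 arrays and carries no p-value and no SD between mice.

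Integrins are cell surface receptors made of 1 alpha and 1 beta subunit, and the pairing sets the ligand. Leukocyte integrins share the beta-2 subunit Itgb2 and bind ICAM molecules and complement fragments on mature white cells. Beta-1 integrins bind fibronectin, laminin, collagen and VCAM-1, and in bone marrow they hold stem and progenitor cells in their niche. Talin and kindlin bind the tail of the beta subunit and switch the receptor to its active form, and vinculin links talin to actin. Selectin ligands and CD44 support the rolling of blood-borne cells along the vessel wall, and immunoglobulin superfamily members act as counter-receptors between cells.

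Signals are MAS5 probe set intensities on a linear scale. Each gene is given by a representative probe set, the one of highest mean log2 signal on the 2 arrays, and differences are log2 of TIF1γ Δ/Δ minus wild type, centred on the median of probe sets measured on both arrays. A gene counted as measured on an array when its signal reached the floor, the median of that array, which was 14.4 in wild type and 11.7 in deleted cells. Where 1 array lay under its floor, the floor replaced the signal and the difference is a bound. Signals of different probe sets are not compared with each other, because probe sets differ in brightness at the same RNA level.

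The targeted gene, Trim33, gave 379 in wild type and 172 in deleted cells, 2.17-fold lower, with the probe set 1426954_at. With 1455189_at it gave 61.0 and 34.5, 1.74-fold lower, and 1459264_at was too low on both arrays to give a fold. Kit, one of the sort markers, was measured on both arrays (384 and 495), and Ly6a, which encodes Sca-1, had no probe set of its own. Markers of mature cells, which the sort selects against, differed between the arrays. All 10 measured neutrophil markers and all 12 measured macrophage markers were lower in deleted cells by 2-fold or more. The summed signal was 31146 in wild type and 135 in deleted cells for the neutrophil list, and 6311 and 293 for the macrophage list. On the deleted array 7 of the 10 and 7 of the 12 lay under the floor. For RNA quality, the Gapdh control probe sets gave 3' over 5' signal ratios of 7.86 (wild type) and 7.38 (deleted).

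Most adhesion genes gave similar signals on both arrays. Of the 33 members, 22 were measured on at least 1 array, 19 of them on both, 10 were under the floor on both, and 1 had no probe set. Of the 22 measured, 2 were at least 2-fold lower on the deleted array, Itgb2 and Itgae, against 6.01% of all 11724 measured genes. None of the 22 was at least 2-fold higher, against 2.53% of all genes. With counts this small, the share of members at least 2-fold apart was close to that of all genes. The median difference of the 22 members was 0.050, with 9 below and 13 above 0 when bounds are taken at their value, and that of all genes was 0.00023. Within 1.5-fold lay 18 of the 22 members (81.8%) and 71.3% of all genes, with bounds taken at their value. For scale, probe sets of the same gene scattered around their gene with an SD of 0.452 (log2) over 4534 genes, which measures disagreement of probe sets and not of mice.

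**Figure D1:**
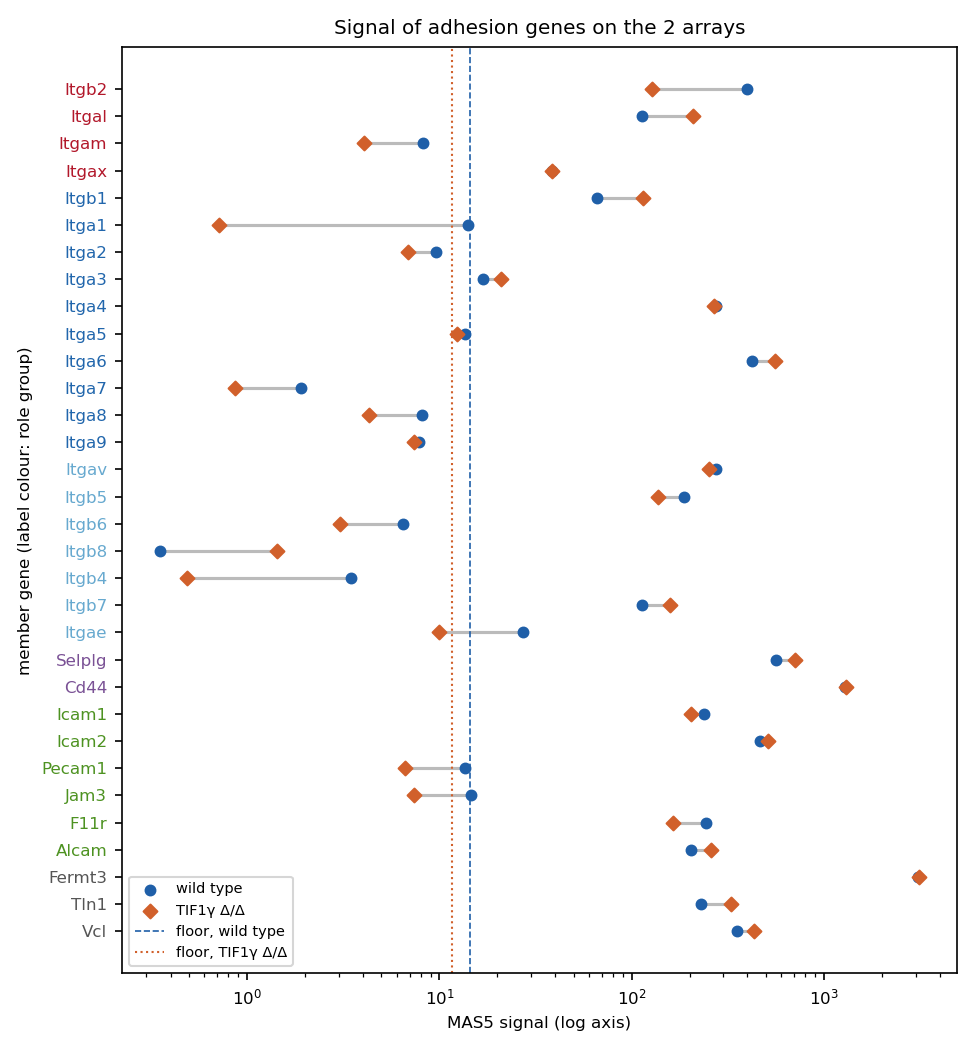
MAS5 signal of the representative probe set of 32 adhesion genes on the wild type array (circles) and the deleted array (diamonds), on a log axis, with the floor of each array as a vertical line and the gene label coloured by role group. Itgb2 shows the widest gap among genes above both floors (399 and 128), and 10 genes lie under the floor on both arrays.

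Among the leukocyte beta-2 integrins, the shared beta subunit and its measured partners did not differ in the same way. Itgb2, the beta-2 subunit that every member of this class needs to reach the surface, gave 399 in wild type and 128 in deleted cells. It was 3.07-fold lower (log2 -1.62) by its only probe set, 1450678_at, and 2.18% of all measured genes lay lower. Both the neutrophil and the macrophage list were low there too (medians -6.72 and -3.87), and their part in the lower Itgb2 signal was not tested. In sorted samples measured in bulk, fewer cells of a type and less RNA per cell cannot be told apart.

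Itgal, the alpha subunit of LFA-1, went the other way, from 113 on the wild type to 209 on the deleted array. This was 1.88-fold higher (log2 0.91), short of 2-fold, and 96.2% of all measured genes lay lower. It rests on the probe set 1435560_at, since the other one, 1425367_at, was under the floor on both arrays. Itgax, the alpha subunit of complement receptor 4 and known as CD11c on dendritic cells, gave 38.4 on both arrays (log2 0.025).

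Itgam, the alpha subunit of Mac-1 and known as CD11b on neutrophils and macrophages, gave 8.18 and 4.07, under the floor on both arrays, so it has no fold. Its single probe set was thus not measured even on the wild type array, on which all 10 neutrophil markers reached the floor. Itgad, the alpha-D subunit, was not analysed here. The 3 measured beta-2 class genes had a median of 0.025 and a mean of -0.23, so the sign of the class depends on how it is summed.

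In the RefSeq gene order Itgam, Itgax and Itgad are consecutive protein-coding genes on chromosome 7. Itgal lies before Itgam, with 35 protein-coding genes between them. Itgax and Itgal, the 2 of these 4 that were measured, had differences of 0.025 and 0.91. The promoter windows of Itgam and Itgax are shown because these neighbours encode partners of the same beta subunit, and those of Itgb1 and Itgb7 because they encode beta subunits that were not lower. Each window runs from 250 bases before to 50 bases after the annotated start, from RefSeq on GRCm38.p6, 5′ to 3′ on the strand of the gene. Capitals mark GAGGAA or its reverse complement TTCCTC, letters that hold the GGAA core of ETS family sites such as those of the myeloid factor PU.1. The Itgam window is chr7:128062390-128062689 on the plus strand, that of Itgax is chr7:128129300-128129599 on the plus strand, that of Itgb1 is chr8:128685404-128685703 on the plus strand and that of Itgb7 is chr15:102231886-102232185 on the minus strand.
Itgam: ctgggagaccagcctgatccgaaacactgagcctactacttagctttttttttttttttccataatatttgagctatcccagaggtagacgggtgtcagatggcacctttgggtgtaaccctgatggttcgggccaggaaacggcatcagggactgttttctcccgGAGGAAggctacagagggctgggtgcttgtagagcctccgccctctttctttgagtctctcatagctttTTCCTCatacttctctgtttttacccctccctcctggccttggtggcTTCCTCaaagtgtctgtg
Itgax: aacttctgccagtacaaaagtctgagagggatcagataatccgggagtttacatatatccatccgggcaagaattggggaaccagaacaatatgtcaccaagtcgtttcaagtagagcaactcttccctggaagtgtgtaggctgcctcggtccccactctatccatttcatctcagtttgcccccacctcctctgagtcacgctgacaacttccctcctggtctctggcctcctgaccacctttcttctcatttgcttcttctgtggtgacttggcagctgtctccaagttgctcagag
Itgb1: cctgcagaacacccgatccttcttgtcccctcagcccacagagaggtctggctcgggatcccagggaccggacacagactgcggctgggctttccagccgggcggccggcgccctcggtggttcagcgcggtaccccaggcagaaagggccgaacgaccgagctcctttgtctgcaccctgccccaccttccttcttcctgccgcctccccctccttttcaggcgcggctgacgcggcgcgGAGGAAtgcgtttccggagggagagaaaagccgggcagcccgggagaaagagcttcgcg
Itgb7: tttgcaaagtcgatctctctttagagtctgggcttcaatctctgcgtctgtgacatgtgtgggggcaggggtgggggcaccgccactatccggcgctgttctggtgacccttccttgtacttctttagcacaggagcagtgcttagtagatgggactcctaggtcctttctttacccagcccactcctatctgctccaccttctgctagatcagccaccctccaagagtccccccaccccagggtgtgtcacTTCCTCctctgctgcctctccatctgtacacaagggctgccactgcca

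The Itgam window held the motif 3 times, starting at -84 on the gene's strand and at -15 and 32 on the other strand, where 0 is the annotated start. Itgax held none, Itgb1 held 1 at -9, and Itgb7 held 1 at 2 on the other strand. A promoter window was in the table for 22 of the 33 members, with 2 windows each for Itga3 and Itgb6. Itgb2, Itgae, Itgal and Itga6 were among the members without a window. The matches therefore do not cover the 2 members at least 2-fold lower, Itgb2 and Itgae, or the highest member, Itgal. Of these 24 windows 11 held GAGGAA on either strand, against 28.3% of all 32851 windows of the same length. The GC box letters GGGCGG were in 14 of the 24 (35.7% of all), and TATAAA was in 1, that of Icam1 (13.6% of all). The only overlap among matches to these letters was between 2 GGGCGG matches of Vcl. GC content ran from 38.3% to 69.7% with a median of 58.8%. These matches describe letters in the windows and are neither sites nor causes.

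In the beta-1 class 5 of 10 genes were measured, and none was 2-fold apart by its representative probe set. Itgb1, the beta subunit of receptors for fibronectin, laminin and VCAM-1, gave 65.7 in wild type and 114 in deleted cells (1.77-fold higher, log2 0.82). Its second measured probe set, 1452545_a_at, gave 59.1 and 63.6 (log2 0.13), and 1427771_x_at was at 14.7 on the wild type and under the floor on the other array. The higher value of Itgb1 therefore rests on 1426918_at.

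Itga4, the alpha-4 subunit of the VCAM-1 receptor VLA-4, gave 274 and 267 (log2 -0.012). With 1456498_at it gave 81.7 and 78.1 (log2 -0.041), and with 1421194_at 37.1 and 40.1 (log2 0.13). The fourth measured probe set, 1450155_at, gave 15.7 in wild type and 4.30 in deleted cells, under that floor, and was at least 1.32-fold lower. The 3 probe sets measured on both arrays were nearly level, whereas the mean of all 5 probe sets put Itga4 at -0.42. Itga6, the alpha subunit of a laminin receptor, was higher by both probe sets. The first, 1422445_at, gave 421 and 559 (log2 0.43), and the second, 1422444_at, gave 157 and 313 (2.03-fold, log2 1.02). The second was the only one of 45 measured member probe sets that was at least 2-fold higher, where 2.77% of all measured single-gene probe sets were.

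Itga3, another laminin receptor subunit, gave 16.8 and 21.0 (log2 0.35), just above both floors. Itga5, the alpha subunit of the fibronectin receptor VLA-5, gave 13.7 on the wild type, under the floor of that array, and 12.4 on the deleted array, so its value of -0.20 is no bound in either direction. Its second measured probe set, 1458996_at, was at 20.4 in wild type and 7.81 in deleted cells, at least 1.72-fold lower. The alpha subunits of collagen receptors, Itga1 (14.1 and 0.711) and Itga2 (9.61 and 6.87), were under the floor on both arrays. The others under it were Itga7 (1.90 and 0.868), Itga8 (8.13 and 4.32) and Itga9 (7.86 and 7.40). For Itga1 the wild type signal lay just under that array's floor.

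The alpha-V, beta-7 and remaining subunits were mixed, with 4 of 7 measured. Itgav, the alpha subunit of vitronectin receptors, gave 273 and 252 (log2 -0.091). Itgb5, one of its partners, gave 188 and 136 (log2 -0.44), and all 4 of its probe sets were lower, by a log2 of -0.28 to -0.88. Of the members with at least 3 measured probe sets, Itgb5 is the one whose probe sets all lay on the same side of 0.

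Itgb7, which pairs with alpha-4 in the gut-homing receptor and with alpha-E on mucosal T cells, gave 113 and 158 (1.42-fold higher, log2 0.50). Itgae, the alpha-E subunit known as CD103, gave 27.4 in wild type and 9.93 in deleted cells, under that floor, and was at least 2.31-fold lower. Its second probe set, 1447541_s_at, gave 51.3 and 3.70, at least 4.33-fold lower. T and NK cell markers were lower on the same array, 4 of 7 measured ones by at least 2-fold at a median of -1.25. Their summed signal was 1623 in wild type and 1199 in deleted cells, most of it from Nkg7 (1249 and 1090, log2 -0.17). Of the genes on that list that encode parts of the T cell receptor complex, Cd3d (28.2 and 1.79) and Cd3g (16.8 and 7.12) reached the floor on the wild type array alone. Cd3e was under the floor on both arrays (1.76 and 1.90), and the CD8 chain Cd8b1 gave 15.3 and 2.92. Each of these T cell genes was thus under the floor on the deleted array. Elsewhere on the list, Klrd1 (141 and 36.5) and Ccl5 (120 and 47.7) were measured on both arrays and were at least 2-fold lower. Gzma gave 50.5 in wild type and lay under the floor in deleted cells, at least 4.26-fold lower. The part of T and NK cells in the lower Itgae signal was not tested. Itgb4 (3.48 and 0.489), Itgb6 (6.47 and 3.04) and Itgb8 (0.352 and 1.44) were under the floor on both arrays.

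The contrast between the beta-2 class and the other integrins showed no class-wide difference in these medians. The 3 measured beta-2 genes had a median of 0.025 and the 9 measured genes among the other 17 integrins a median of -0.012, a gap of 0.037. Their means were -0.23 and 0.017, so for both classes the mean had the opposite sign to the median. Restricted to genes measured on both arrays, the medians were 0.025 for 3 and 0.35 for 7. Itgal at 0.91 was the highest of the 22 measured members. At the low end, Itgb2 at -1.62 and Itgae have no settled order, because the -1.21 of Itgae is a bound, its second probe set is at or below -2.11, and the mean of all its probe sets gave -1.66. With 3 measured genes the beta-2 median is the value of Itgax alone.

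Subunits that form a receptor together were then set side by side. Of 22 known alpha and beta pairs, counting Itga2b and Itgb3 from outside the group, 10 had both subunits measured on both arrays. In 3 of the 10 the subunits were at least 2-fold apart from each other. The widest gap was that of LFA-1, where Itgal at 0.91 and Itgb2 at -1.62 were 5.77-fold apart, followed by Itgax and Itgb2 at 3.12-fold. Next was alpha-V beta-3, with Itgav at -0.091 and Itgb3 at 1.34. For VLA-4, Itga4 at -0.012 and Itgb1 at 0.82 were 1.78-fold apart, and for VLA-6, Itga6 and Itgb1 were both above 0 and 1.31-fold apart. Pairs share subunits, so the 10 gaps are not independent of each other. The gaps of Itgal and of Itgax to Itgb2 rest on the same Itgb2 value, and Itgb3 is from outside the group. The share of other gene pairs at least 2-fold apart was not computed, so the count of pairs has no background.

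**Figure D2:**
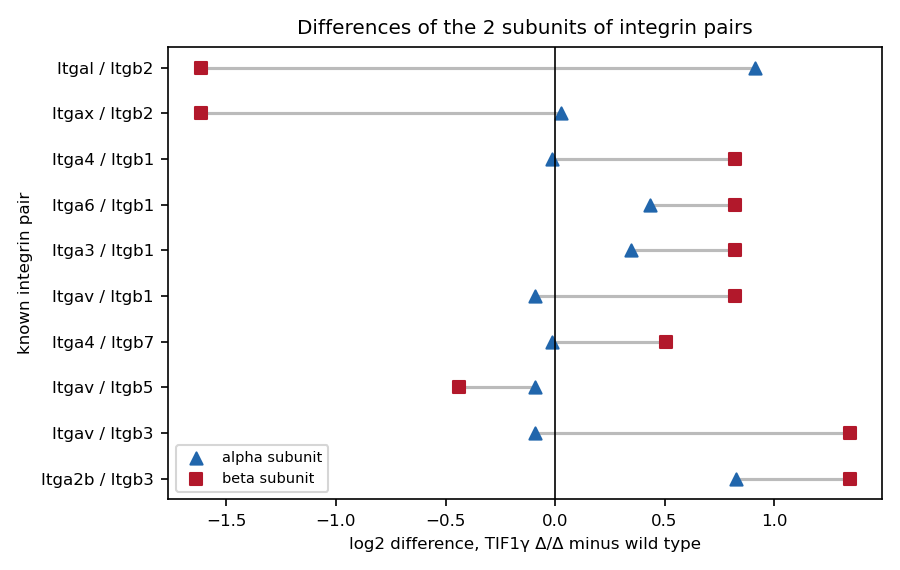
Log2 difference (TIF1γ Δ/Δ minus wild type) of the alpha subunit (triangles) and the beta subunit (squares) of the 10 known integrin pairs with both subunits measured on both arrays. Itgb2 at -1.62 lies far to the left of Itgal at 0.91 and of Itgax at 0.025, while Itgb1 and Itgb3 lie to the right of their alpha partners.

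Selplg and Cd44, which mediate the first contact with vessel walls, differed by less than 1.5-fold with their representative probe sets. Selplg encodes PSGL-1, the main ligand of P-selectin on leukocytes, and gave 560 in wild type and 705 in deleted cells (log2 0.35). Cd44, the hyaluronan receptor, gave 1278 and 1302 (log2 0.051) with 1434376_at and 1179 and 1407 (log2 0.28) with 1423760_at. The probe set 1452483_a_at went the other way with 45.5 and 31.2 (log2 -0.52). Averaging all 4 probe sets, among them 1443265_at under the floor on both arrays (0.303 and 3.02), put Cd44 at 0.79.

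Of the 6 immunoglobulin superfamily members 5 were measured, and the 4 measured on both arrays were within 1.5-fold. Icam1, a ligand of LFA-1 and Mac-1, gave 237 and 203 (log2 -0.20), and Icam2, another LFA-1 ligand, gave 467 and 509 (log2 0.15). F11r, the junctional molecule JAM-A that also binds LFA-1, gave 244 and 164 (1.46-fold lower, log2 -0.55). The measured LFA-1 ligands thus lay between -0.55 and 0.15.

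Alcam, an adhesion molecule that binds CD6 and other Alcam molecules, gave 205 and 258 (log2 0.36) with its representative probe set. The other 4 measured probe sets of Alcam were lower, at -0.083, -0.11, -0.16 and, as a bound, -0.71, so its direction depends on the probe set. Jam3, the junctional molecule JAM-C, gave 14.6 and 7.42, the latter under the floor, and was at least 1.23-fold lower. With the floor at the 40th percentile Jam3 was at -0.92 and with no floor at -0.86, below F11r in both settings (-0.52 and -0.45). Pecam1, an endothelial and platelet adhesion molecule that stem cells also carry, gave 13.5 and 6.62, under the floor on both arrays.

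The cytoplasmic partners were all measured on both arrays and all had a positive difference under 2-fold, which turned to -0.23, -0.52 and -0.28 for Fermt3, Tln1 and Vcl with the mean of all probe sets. Fermt3, the kindlin of blood cells that is needed for integrin activation, gave 3065 and 3119 (log2 0.049), and its next probe sets gave 0.17 and -0.12. The probe set 1443641_at, gave 31.8 and 15.6 (log2 -1.01). Tln1, the talin that binds beta subunit tails, gave 230 and 330 (1.46-fold higher, log2 0.54) with 1448402_at. It gave 101 and 62.7 (log2 -0.66) with 1436042_at and a bound of -1.27 with 1457782_at, so Tln1 has no settled direction. Vcl, which encodes vinculin, gave 354 and 431 (1.24-fold higher, log2 0.31). Its other probe set, 1416157_at, was under the floor on both arrays (0.630 and 0.341) but enters its mean.

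Probe sets of the same member did not always have the same direction. Of the 76 probe sets 45 were measured, and 5 of these were at least 2-fold lower, where 5.91% of all measured single-gene probe sets were. These 5 belonged to Itgb2, Itgae (both), Fermt3 and Tln1. For 2 of the 45, 1 each of Itga3 and Itga5, the value of the array under the floor leaves no direction. Of 9 members with more than 1 remaining probe set, 6 had probe sets on both sides of 0, and the other 3 were Itga6, Itgb5 and Itgae. The same share over all genes was not computed, so this count has no background to be read against.

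**Figure D3:**
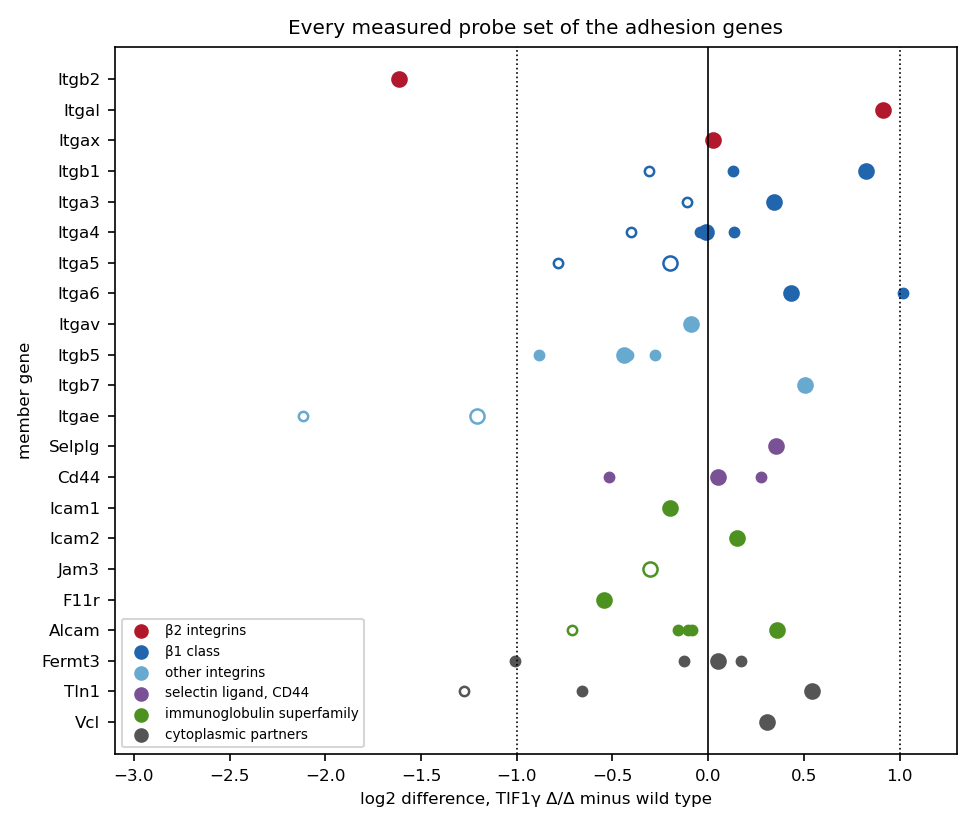
Log2 difference (TIF1γ Δ/Δ minus wild type) of all 45 measured probe sets of 22 adhesion genes, with the representative probe set as a large point, colour by role group, open points where 1 array was under the floor and dotted lines at 2-fold. Itgb2 and both probe sets of Itgae lie left of -1, while the probe sets of Tln1 and Alcam spread over both sides of 0.

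A wider set of 84 other adhesion genes, listed by name, was read in the same way. Among the 65 measured ones, 4 were at least 2-fold lower and 2 at least 2-fold higher (6.15% and 3.08%), close to the 6.01% and 2.53% of all genes, and their median was 0.082 with a mean of -0.040. Among other integrin subunits, Itgb3, the beta subunit of the platelet fibrinogen receptor, gave 58.3 and 146 (2.54-fold higher), and its partner Itga2b gave 308 and 538 (log2 0.83). The megakaryocyte markers, a list that includes both, had a median of 0.72, with 3 of 8 measured ones at least 2-fold higher and none lower, and their summed signal was 1873 in wild type and 3026 in deleted cells. Their part in these 2 values was not tested.

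Genes that switch integrins on from inside the cell had a median of -0.16 over 11 measured. The small GTPases Rap1a (3241 and 2823, log2 -0.18) and Rap1b (4419 and 3885, log2 -0.16) were nearly level. Skap1, an adaptor known from T cells, was at least 2.08-fold lower (24.7 and 11.1) and the only one of this list past 2-fold. Of adhesion complex and kinase genes, 19 were measured, at a median of 0.22. Parvg, the parvin of blood cells that joins integrin-linked kinase to actin, gave 283 and 628 (2.26-fold higher, 2 of 2 probe sets). Fgr, a Src family kinase of myeloid cells, gave 50.1 and 21.4 (2.30-fold lower, 2 of 2), beside the lower neutrophil and macrophage markers.

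None of the 10 measured selectins and selectin ligand enzymes was 2-fold apart (median 0.23). Selp, which encodes P-selectin, gave 361 and 511 (log2 0.53), and the galactosyltransferase B4galt1 gave 284 and 384 (log2 0.46). Gcnt1, which builds the sugar branch that selectin ligands need, was the lowest of the list with 364 and 211 (log2 -0.76). Tetraspanins, membrane proteins that associate with integrins, had a median of -0.22 over 7 measured with none 2-fold apart. Cd53 gave 1931 and 1252 (log2 -0.60), but of its 2 measured probe sets 1 was lower and 1 higher. Cd81 gave 1069 and 1112 (log2 0.080). The other adhesion receptors had a median of -0.095 over 16 measured, with 2 at least 2-fold lower. Vcam1, the ligand of VLA-4, gave 1364 in wild type and 7.66 in deleted cells, at least 115-fold lower, and it is also on the macrophage marker list. Cd2, an adhesion receptor of T and NK cells, was at least 2.27-fold lower (26.9 against a signal under the floor).

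Set against the cell type markers, the members spread less than the neutrophil and macrophage lists but not less than the markers of KLS cells or of T and NK cells. The 22 measured members ran from -1.62 to 0.91, with bounds taken at their value. Neutrophil markers ran from -9.43 to -1.88 and macrophage markers from -6.85, the bound of Vcam1, to -1.16. Markers of KLS cells ran from -0.60 to 1.40 at a median of 0.31 over 8 measured, and those of T and NK cells from -2.09 to -0.17. Erythroid markers had a median of -1.71 over 9 measured. For erythroid markers the summed signal was 2318 in wild type and 808 in deleted cells. B cell markers had a median of -2.62 over 3 measured, with a summed signal of 626 and 195. How far cells of these types contribute to the signal of any adhesion gene was not tested.

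**Figure D4:**
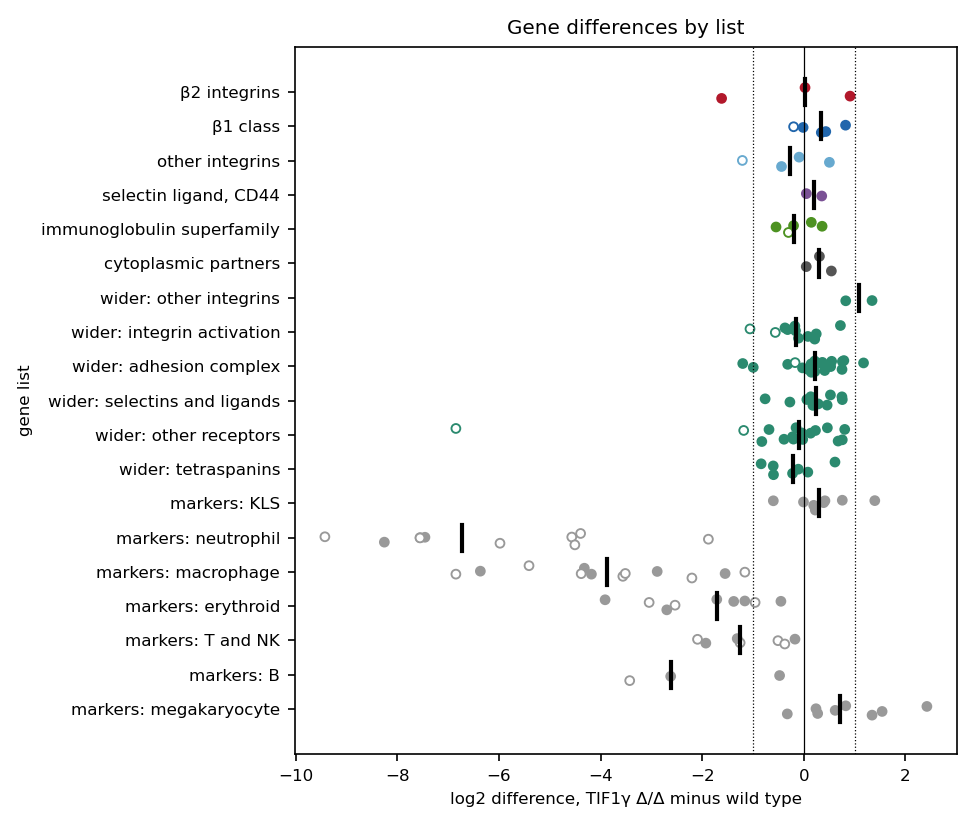
Log2 difference (TIF1γ Δ/Δ minus wild type) of each measured gene in the role groups of adhesion genes, the wider adhesion lists and the cell type marker lists, with open points for bounds, a black bar at the median of each list and dotted lines at 2-fold. Medians of the adhesion lists lie between -0.26 and 0.35, apart from the 2 measured other integrins outside the group (1.09), and Vcam1 lies at -6.85, while neutrophil and macrophage markers lie at medians of -6.72 and -3.87.

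The lower Itgb2 and the higher Itgal and Itgb1 kept their sign under every alternative that gave a value. Under 9 alternative settings of scaling, floor, pseudocount and probe set choice, Itgb2 ran from -1.75 to -1.51 and Itgal from 0.43 (mean of all probe sets) to just 2-fold higher (no floor). Itgb2 has 1 probe set, so probe set choice could not change its value. Itgb1 ran from 0.69 to 0.92 under the 8 settings that gave a value, all with 1426918_at, whereas 1452545_a_at gave 0.13 in the main setting. With the mean of all its probe sets Itgb1 was under the floor on both arrays. Itgae ran from -1.66 to -0.63 and was not 2-fold lower with quantile scaling (-0.94), loess scaling (-0.97) or a pseudocount of 16 (-0.63), and it was not measured with the floor at the 65th percentile. With the mean of all probe sets F11r reached -1.29. That mean takes in probe sets under the floor on both arrays, 1436374_x_at for F11r (13.1 and 3.12) and 1425367_at for Itgal.

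**Figure D5:**
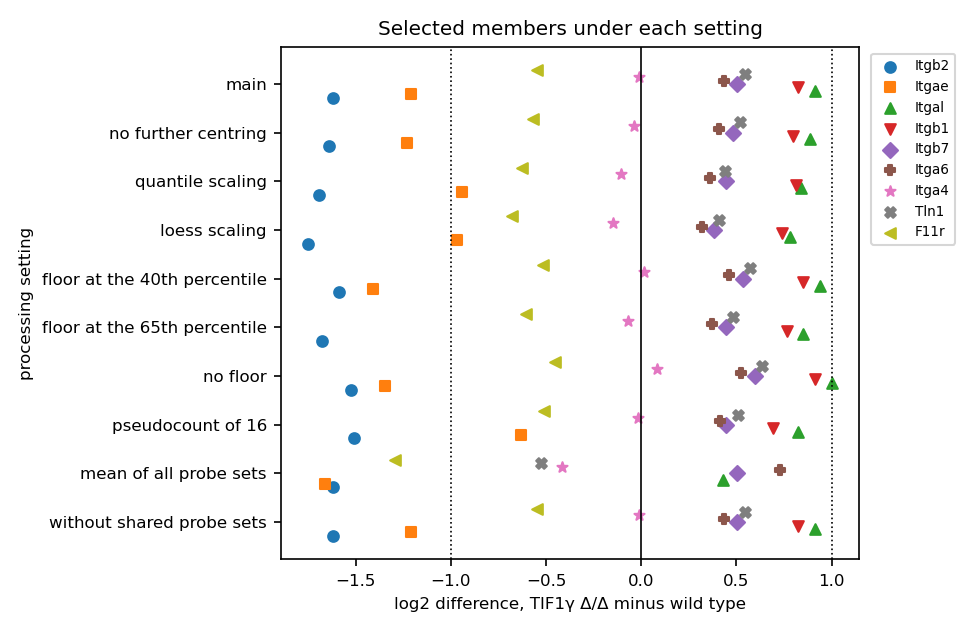
Log2 difference (TIF1γ Δ/Δ minus wild type) of 9 adhesion genes under the main setting and 9 alternatives, with dotted lines at 2-fold and no point where a gene was under the floor on both arrays. Itgb2 stays between -1.75 and -1.51, Itgae crosses the 2-fold line in some settings, and Tln1 moves to -0.52 with the mean of all probe sets.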

How the data were processed

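RNA of KLS cells was measured on 1 array per genotype. Per the labels' protocols, biotin-labelled cRNA was made from 25 ng of total RNA by a two-cycle Affymetrix assay. Per the submitters' processing notes, MAS5 was used for the deposited intensity values. Their mean after trimming 2% at each end was 100.001 on both arrays, so the authors had already scaled them. From these intensities log2 differences were computed and centred by -0.024.

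Of 45101 probe sets, 64 controls were left out, 34945 had 1 annotated gene, 932 had several and 9160 had none. Symbols were updated by Entrez identifier to RefSeq (GRCm38.p6) for 34741 of them. The number of arrays limits the precision. No test between samples was possible, and counts of genes 2-fold or more apart rest on size. Alternatives covered scaling, floor, pseudocount, probe set choice and threshold. The computation was tested on simulated data in which only genes of high signal were changed, so bounds at the floor were not checked.

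Members, lists and settings were chosen with earlier results of these data known. Every measured member is named. From the wider lists the text names genes at least 2-fold apart, or the 2 of highest mean signal where a list had none, and names Itga2b, Rap1a, Rap1b and Gcnt1 besides, chosen after their values were seen. Python 3.11.15, numpy 2.4.6, pandas 2.3.3, statsmodels 0.14.6 and matplotlib 3.10.9 were used.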

Additional observations from a re-analysis of the deposited data

How the results depend on the processing

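No alternative reversed a gene called 2-fold apart among the members. Of 189 values of single members under alternatives, 179 moved by less than the probe set scatter of 0.452 and 10 by more. Some alternatives could hardly move a value. No further centring shifts every gene alike, and leaving out shared probe sets changes only genes that they represent. Itgax, Itga4, Itga5, Itgav, Cd44, Alcam, Fermt3, Tln1 and Vcl changed sign under at least 1 alternative. The 2 members at least 2-fold lower became 1 with quantile or loess scaling, the floor at the 65th percentile, a pseudocount of 16 or a 3-fold threshold. In that order, the shares of all genes were 4.87%, 5.37%, 4.45%, 2.99% and 2.27%. The lower members became 5 of 32 with no floor, against 15.3% of all 18193 genes. When any probe set could count, an alternative chosen after seeing the data, they became 4 of 22, against 9.23% of all genes. The members at least 2-fold higher, 0 in the main setting, became 2 with no floor or at 1.5-fold and 1 when any probe set could count. The shares of all genes higher were 11.1% with no floor, 13.5% at 1.5-fold and 4.57% when any probe set could count. The 1002 genes at least 2-fold apart became 582 with the floor at the 65th percentile, 4809 with no floor, 501 with the pseudocount, 3370 at 1.5-fold, 292 at 3-fold and 1606 when any probe set could count. Looser or stricter thresholds and floors change such counts by construction. The members' median of 0.050 over 22 genes became 0.17 over 22 with quantile scaling and -0.23 over 17 with the mean of all probe sets. The beta-2 median became -0.39 with no floor, where Itgam entered. The median of the other integrins, over 9 genes in the main setting, became 0.15 over 6 at the higher floor (65th percentile). With the mean of all probe sets it was -0.42 over 5, which is the value of Itga4. Medians over different numbers of genes differ in the genes they hold as well as in the values. The gap between the 2 medians became -0.36 with no floor and 0.44 with the mean of all probe sets, so its sign is not settled. The mean of all probe sets takes in probe sets under the floor on both arrays, and their part in the shifts was not tested. The cause of the shifts with scaling was not tested either. No paired analysis was possible because each genotype had 1 array. Low MAS5 signals are noisy, which limits the 10 members under the floor.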
